A study of Mus musculus with 12 samples.

Results

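Within MNase-seq data from mouse male germ cells, 2 bins of 10 kb that lost their nucleosome calls as more enzyme was added were examined in detail. On GRCm38/mm10 they run from 24610001 to 24620000 on chromosome 1, where the pseudogenes Gm10222 and Gm10925 lie, and from 22580001 to 22590000 on chromosome 2, inside the gene Myo3a. The members are all calls with a midpoint in either bin, plus any call on the mitochondrial chromosome. They numbered 382 of 415758 calls (0.0919%), with 328 on chromosome 1, 54 on chromosome 2 and 0 on the mitochondrial chromosome. The bins were selected on the fall of their numbers of calls from 0.5 to 2 U of MNase, so that fall is given below as a description, without a test.

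All samples were testis germ cells of adult SV129 males aged 8 to 12 weeks, with no other genotype or treatment given. Cells were sorted by size on a sedimentation gradient, pooled from 11 mice per collection and kept at a purity of at least 85%. The round spermatid fraction (RS) holds haploid cells before their histones are replaced. The other fraction (M) is titled meiotic spermatid but called meiotic in the protocol, and the lists hold no expression by which either label could be checked. Each fraction was digested for 7.5 min at 37 °C with 0.5, 1 or 2 U of MNase, and RS digestions held 2 times as many cells as M digestions at each amount. The authors made 1 list of calls from both samples of a group, so the 12 samples gave 6 lists, and no difference could be set against replicate error. RS lists held 179133, 41655 and 27101 calls from 0.5 to 2 U, and M lists held 42178, 60077 and 65614.

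Micrococcal nuclease cuts DNA that is not held by protein, so fragments that survive a digestion usually mark DNA wrapped around histones. Mitochondrial DNA carries no histones. It is a small circle, present in many copies per cell, packed by the protein TFAM, and it encodes subunits of the respiratory chain. Over evolution, pieces of it were copied into the nuclear chromosomes, and a recent nuclear copy can be so like its source that short reads are placed on either. The lists hold positions and no reads, so reads from such a nuclear copy and reads from the mitochondrial circle cannot be told apart here. Nor do they show whether the mitochondrial chromosome was searched for calls.

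The label mitochondrial-like could be checked for the chromosome 1 bin from the RefSeq annotation of the same build. Gm10925, from 24613971 to 24614651, spans 681 bp and lists mt-Atp6 among its other names. ATP6, which encodes a subunit of the mitochondrial ATP synthase, is the only one of 37 mitochondrial genes with that length. Gm10222, from 24612404 to 24612700, spans 297 bp, a length shared only with ND4L, which encodes a subunit of complex I. The gap also fits: the end of Gm10222 and the start of Gm10925 are 1271 bp apart, and the end of ATP6 and the start of ND4L are 1270 bp apart, with the order of the pair turned round. No annotated gene of mitochondrial name lies in the chromosome 2 bin, where the only annotated gene is Myo3a, so the label was not checked there and that bin is called by its position. No sequence of either bin was at hand.

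The chromosome 1 bin held 113, 4 and 0 calls in RS at 0.5, 1 and 2 U, against 124, 75 and 12 in M. Both fractions were thus filled with calls at 0.5 U. RS had lost nearly all of them at 1 U, while M kept most at 1 U and lost them at 2 U. Per 100000 calls of the list, these are 63.1, 9.60 and 0 in RS and 294.0, 124.8 and 18.3 in M. From 0.5 to 1 U the relative number fell 6.57-fold in RS (log2 ratio with 0.5 added to each count -2.55, 95% interval -3.91 to -1.19) and 2.35-fold in M (-1.23, -1.64 to -0.82). All such intervals hold counting error alone, and since neighbouring calls overlap, they understate it. At 2 U the number in RS was at least 5.70-fold lower than at 0.5 U, with the empty list set at 3 calls. In M it was 16.1-fold lower (-3.95, -4.79 to -3.11).

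**Figure D1:**
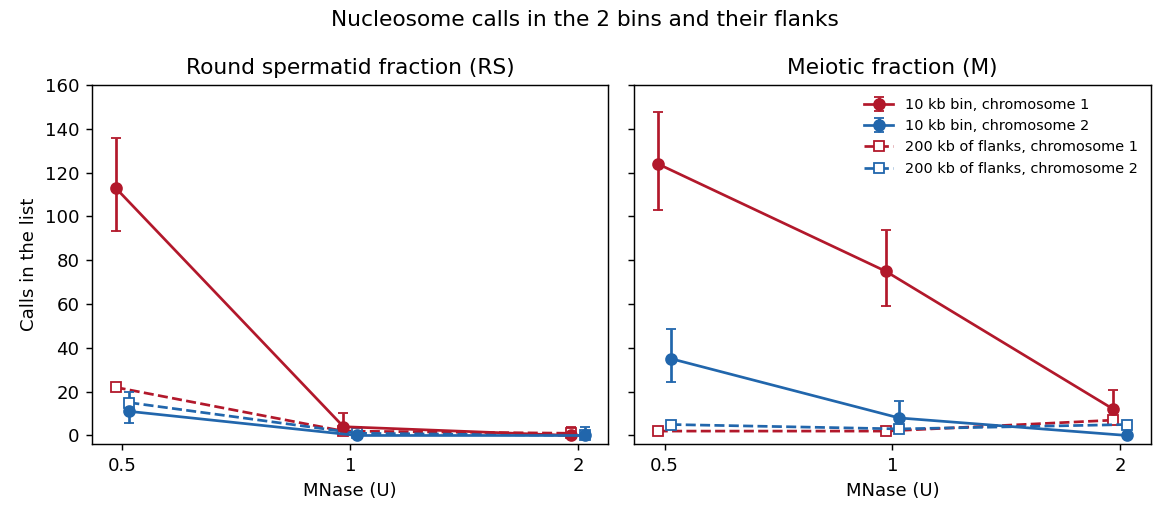
Number of calls (vertical axis) at 0.5, 1 and 2 U of MNase (horizontal axis) in the 10 kb bins on chromosomes 1 and 2 (filled circles, with exact 95% Poisson intervals) and in their flanks of 100 kb on each side (open squares, dashed), RS on the left and M on the right. The chromosome 1 bin has 113, 4 and 0 calls in RS and 124, 75 and 12 in M, while flanks stay at or below 22.

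The chromosome 2 bin held fewer calls, 11, 0 and 0 in RS and 35, 8 and 0 in M. It was empty in RS from 1 U on and in M at 2 U. In M the number per 100000 calls was 83.0, 13.3 and 0, so that it was 6.23-fold lower at 1 U than at 0.5 U (log2 -2.57, -3.65 to -1.49) and at least 18.1-fold lower at 2 U. In RS the 11 calls at 0.5 U are 6.14 per 100000. A list of the size of RS at 2 U would show 3 calls at 11.1 per 100000, so a relative fall in RS was not detectable in this bin, and only the raw loss of 11 calls is shown.

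Calls say little about depth, because a stretch that is full of calls cannot gain more. The authors' p-values match Poisson tails with a minimum of 6 reads, which gives the read count that each call implies. In the chromosome 1 bin the median call implied 17 reads in RS at 0.5 U, with a range of 6 to 53, and 53.5 reads in M, with a range of 10 to 144. The value of 144 is a lower limit, as 2 M calls had p-values too small to resolve. No M call of that list was at the minimum, against 65.4% of all calls of the list. Over the mean implied coverage of the list, the median call stood 24.4 times higher in RS and 123.4 times higher in M. That mean was 0.696 reads in RS and 0.434 in M, while the median call of either whole list implied 6 reads. Any call thus stands well over the mean, and part of both factors comes from the minimum of 6 reads. At 1 U the median call of the bin implied 7.5 reads in RS and 9 in M, and the 12 calls of M at 2 U had a median of 8. Since calls below 6 reads are not listed, these later medians understate the loss.

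Calls that do not overlap, taken from the deepest down, give a sum of reads without double counting. On chromosome 1 that sum was 502, 21 and 0 reads in RS and 1562, 206 and 43 in M. The sum over listed calls thus dropped more steeply in M than the number of calls did. M at 1 U had 75 calls, 60.5% of its number at 0.5 U, but 13.2% of the listed reads. Places with fewer than 6 reads add 0 to these sums, and M calls covered 4510, 3415 and 875 bp from 0.5 to 2 U. The sums at 1 and 2 U therefore leave out more of the stretch, which overstates the drop in reads. On chromosome 2 the sums were 56, 0 and 0 reads in RS and 259, 24 and 0 in M. The deepest call there implied 20 reads in RS and 65 in M at 0.5 U, and 15 in M at 1 U.

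The calls filled the same stretch of the chromosome 1 bin in both fractions. At 0.5 U they ran from 24611612 to 24616131 in RS, a span of 4520 bp, and from 24611642 to 24616151 in M, a span of 4510 bp. In RS these were 6 runs of overlapping calls that covered 96.8% of the span, and in M it was 1 unbroken run. Both ends thus lay within 30 bp of each other between the fractions. No call of any list lay in the rest of the bin, and the next 10 kb on either side held 0 calls in 5 lists and 1 call in M at 1 U. With more MNase the stretch broke up: RS at 1 U had 3 runs over 447 bp, M at 1 U had 6 runs over 3415 bp, and M at 2 U had 5 runs over 875 bp.

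**Figure D2:**
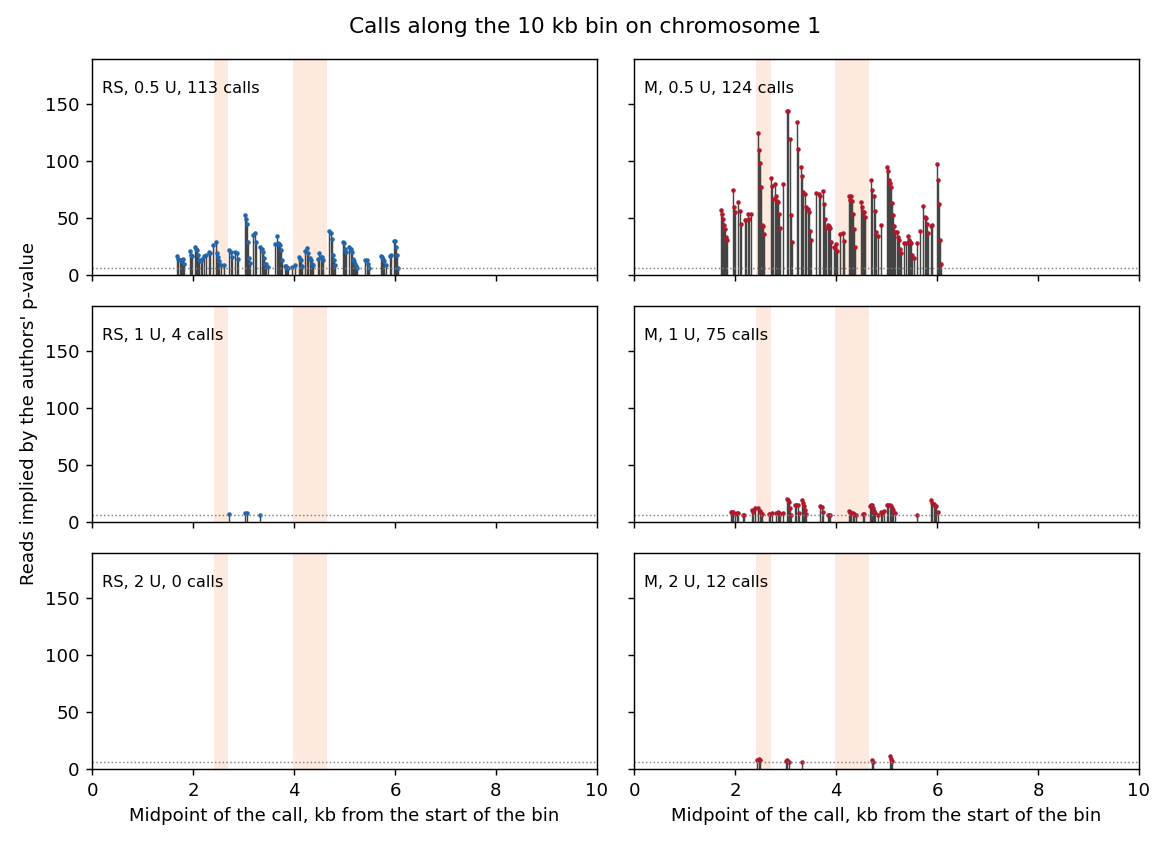
Reads implied by each call (vertical axis) against the call's midpoint in kb from the start of the chromosome 1 bin (horizontal axis), RS in the left column and M in the right, with 0.5, 1 and 2 U from top to bottom. Shaded bands mark Gm10222 (left) and Gm10925 (right), the dotted line marks the minimum of 6 reads, and the highest call reaches 53 reads in RS and 144 in M at 0.5 U.

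Depth along the stretch had a like shape in both fractions at 0.5 U. In 37 windows of 100 bp with calls in both lists, the deepest call implied fewer reads in RS than in M in 37 of 37, and the median ratio of M to RS was 3.23. Across these windows, which are neighbours and not independent, Pearson's r of the deepest calls was 0.72 and Spearman's rho 0.68, as a description. The deepest call stood at nearly the same place in 4 lists: at 24612962 to 24613101 in RS at 0.5 U and M at 1 U, at 24612967 to 24613106 in RS at 1 U, and at 24612952 to 24613091 in M at 0.5 U. In M at 2 U it lay at 24614992 to 24615131, with 12 reads.

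Calls that were left at more MNase lay in windows that had been deeper at 0.5 U, by the median. In RS, the 3 windows of 100 bp with a call at 1 U had implied a median of 25 reads at 0.5 U (22 to 53), and the 37 that had lost theirs had implied 18 (7 to 39). In M, the 29 windows that still had a call at 1 U had implied 69 reads (39 to 144), and the 13 without one 36 (18 to 64). The 6 M windows with a call at 2 U had implied 95 reads (63 to 144), against 55.5 (18 to 134) in the 36 others. The ranges overlap in each case, and depth at 0.5 U was not separated from other features of these places. Since a call needs 6 reads, a loss that was even along the stretch would also leave calls mainly in the deeper windows. Nothing about the places themselves is therefore read from this.

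Few places were left in RS at 1 U and M at 2 U. RS at 1 U kept 1 call from 24612647 to 24612786 (7 reads), 2 between 24612967 and 24613133 (8 each) and 1 from 24613247 to 24613386 (6). M at 2 U kept 3 calls between 24612367 and 24612561 (8, 9 and 8 reads), 3 between 24612942 and 24613141 (7, 8 and 6), 1 from 24613262 to 24613401 (6), 2 between 24614632 and 24614791 (8 and 6) and 3 between 24614992 and 24615171 (12, 9 and 7). Of the 4 RS calls, 3 had a midpoint within 73 bp of one of the 12 M calls. All 16 calls lay within 15 bp of a call of their own fraction at 0.5 U, in stretches that were nearly full of calls there.

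The pseudogenes themselves showed the loss. Gm10925 held 17, 0 and 0 calls in RS from 0.5 to 2 U, against 18, 8 and 0 in M. Gm10222 held 6, 0 and 0 in RS, against 7, 6 and 3 in M. The smaller of the pair was thus the one that kept calls in M at 2 U.

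The pair of pseudogenes lets mitochondrial genes be placed on the chromosome 1 bin, with the offset of ATP6 and Gm10925 and the order turned round. ATP6, COX3, ND3 and ND4L fall on or between the pseudogenes, to within 1 bp. Beyond them the placement assumes that the same offset holds. On that assumption the calls at 0.5 U run from base 6447 to 10966 of the mitochondrial chromosome in RS and from 6427 to 10936 in M. Of its 15 protein-coding and ribosomal RNA genes, 8 were then placed where calls lay, from within COX1 to within ND4. The other 7 were placed where no list had a call. Whether the sequence at those places is like the mitochondrial one was not checked, so these counts say nothing of calls on the mitochondrial genes themselves.

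The placed genes differed in depth within the stretch. ND3, a subunit of complex I like ND4L, held the deepest calls in 4 lists, with up to 53 and 8 reads in RS at 0.5 and 1 U and up to 144 and 20 in M at these amounts. COX3, a subunit of cytochrome c oxidase, had up to 37 and 6 reads in RS and up to 134 and 19 in M. ATP6 had the lowest maximum at 0.5 U, with up to 24 reads in RS and 69 in M, while the lowest median was at COX2, with 13.5 reads in RS and 34 in M. ATP6 had 0 calls in RS at 1 U and in M at 2 U. M at 2 U thus had no calls at ATP6 while it kept 3 at ND3 and 1 at COX3. COX2, also of cytochrome c oxidase, held up to 29 reads in RS at 0.5 U, against 95, 15 and 12 in M from 0.5 to 2 U. At 0.5 U, ND4 of complex I reached 26 reads in RS and 75 in M, and the placed end of COX1 of cytochrome c oxidase reached 30 in RS and 97 in M. Both ends of the stretch, like ATP6, had 0 calls in RS at 1 U and in M at 2 U. The short gene ATP8, whose end overlaps the start of ATP6, reached 39 reads in RS and 83 in M at 0.5 U and kept 2 calls in M at 2 U.

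**Figure D3:**
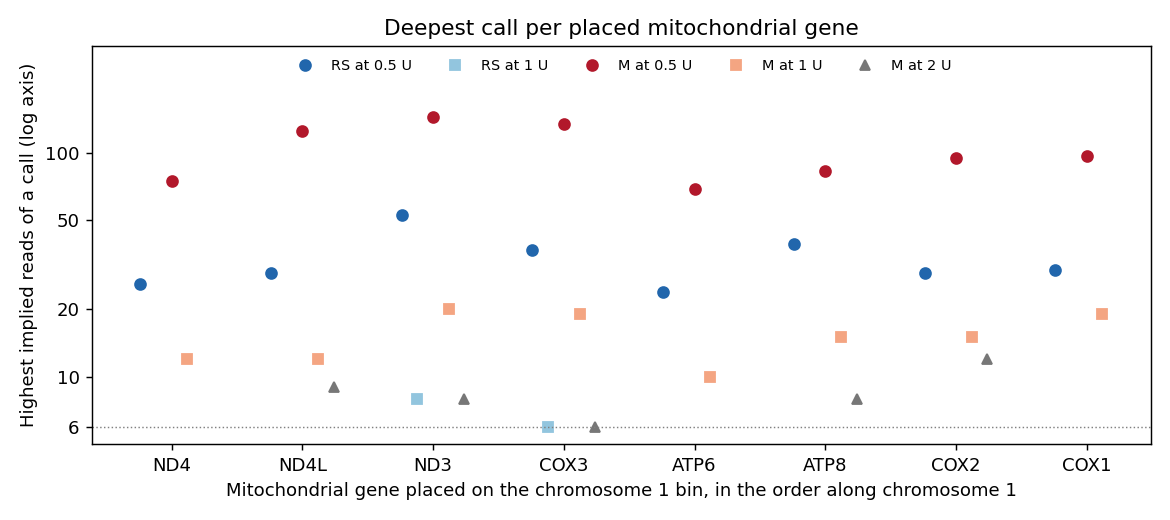
Highest number of implied reads of a call (vertical axis, log scale) for each mitochondrial gene placed on the chromosome 1 bin (horizontal axis, in the order along chromosome 1), by list; a missing symbol means that the list has 0 calls there, as RS at 2 U has throughout. RS at 0.5 U runs from 24 at ATP6 to 53 at ND3, and M at 0.5 U is highest at every placed gene, from 69 to 144.

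The chromosome 2 bin had its calls in the last 3 kb. In RS at 0.5 U they ran from 22588067 to 22589901 in 4 runs that covered 39.4% of this span, and in M from 22587422 to 22590031 in 7 runs that covered 73.6%. The run crossed the edge of the bin. Just outside it, within 200 bp, RS at 0.5 U had 1 more call of 7 reads, and M at 0.5 U had 3 of 27, 26 and 19 reads, up to 22590181. The last calls inside the bin are thus not the end of the stretch. The deepest call lay at 22589702 to 22589841 in both RS and M at 0.5 U, and 10 bp further on in M at 1 U.

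On chromosome 2 too, the places that kept calls had been the deeper ones. The 3 windows of 100 bp that still had a call in M at 1 U had implied 46 to 65 reads at 0.5 U, and the 14 that had lost theirs had implied 6 to 37. These ranges do not overlap, but here too the minimum of 6 reads favours the deeper windows, so nothing more is read from this. All 11 RS calls at 0.5 U lay within 73 bp of an M call of that amount, and 16 of the 35 M calls lay within 73 bp of an RS call, so RS called a smaller part of the same places.

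**Figure D4:**
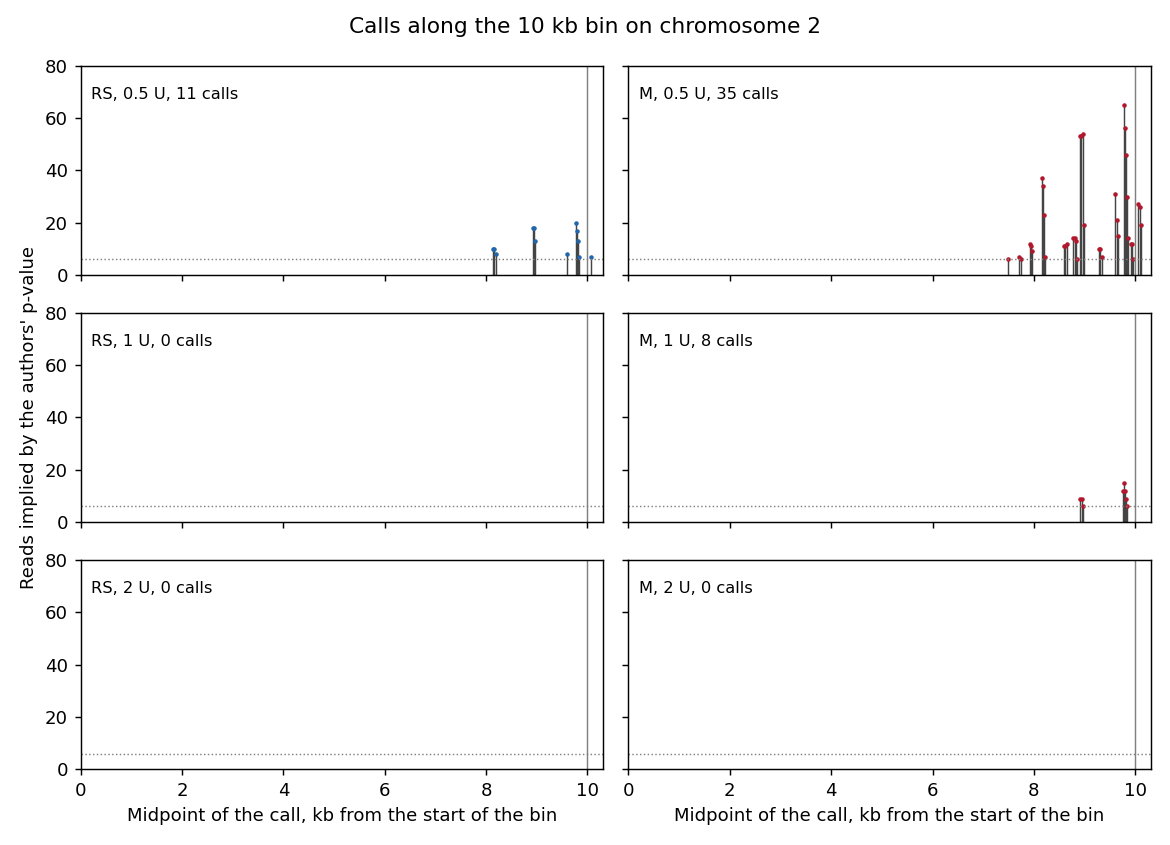
Reads implied by each call (vertical axis) against the call's midpoint in kb from the start of the chromosome 2 bin (horizontal axis), RS in the left column and M in the right, with 0.5, 1 and 2 U from top to bottom. The vertical line marks the end of the bin, past which the run of calls continues at 0.5 U, and the dotted line marks 6 reads.

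Set against each other at the same MNase, the fractions differed in how soon the listed calls went. M was deeper at 0.5 U, with a median of 53.5 reads against 17 in RS on chromosome 1. Since a call needs 6 reads, an equal relative loss of reads would empty the RS lists sooner. A faster loss of DNA in RS is therefore not shown, here or at equal MNase per cell. Relative to list size, the chromosome 1 bin was 4.66-fold lower in RS than in M at 0.5 U (log2 ratio -2.22, -2.59 to -1.85) and 13.0-fold lower at 1 U (-3.54, -4.91 to -2.17). At 2 U it was at least 1.65-fold lower with the empty RS list set at 3 calls. The interval of that log2 ratio (-3.37, -7.45 to 0.71) includes 0, so a lower value in RS is not shown at 2 U. The difference at 0.5 U rests on list size: the raw numbers of 113 and 124 calls give a log2 ratio of -0.13. The chromosome 2 bin was 13.5-fold lower in RS at 0.5 U (-3.71, -4.67 to -2.75), with 11 calls against 35.

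The fractions were also set side by side at equal MNase per cell. The chromosome 1 bin had 4 calls in RS digested with 1 U and 124 in M digested with 0.5 U, which is 30.6-fold lower in RS per list (log2 -4.77, -6.13 to -3.42). For RS digested with 2 U and M digested with 1 U, the numbers were 0 and 75, at least 11.3-fold lower in RS. On chromosome 2 the same pairs had 0 against 35 calls, at least 11.5-fold lower in RS, and 0 against 8, at least 1.20-fold lower. For 0 against 8 the interval of the log2 ratio (-2.94, -7.05 to 1.18) includes 0, so a lower value in RS is not shown. With empty RS lists these folds are bounds, so whether the gap differed from that at equal amounts is shown by none of these 3 pairs. RS at 0.5 U, with the least MNase per cell of all 6 lists, implied fewer reads than M at 0.5 U in both sum and maximum. Amount of mitochondrial DNA per cell, purity of the fraction and extent of digestion were not measured in these lists, and their part in the difference was not tested.

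The surrounding 200 kb, 100 kb on each side, held few calls of low depth. On chromosome 1 they had 22, 2 and 1 calls in RS and 2, 2 and 7 in M. None of these implied more than 9 reads. The bin over its flanks, in calls per kb, was 102.7 (65.1 to 162.2) and 40.0 (7.33 to 218.4) in RS at 0.5 and 1 U, and had no value at 2 U, where both were at or under 3 calls. In M it was 1240 (306.7 to 5014), 750.0 (184.2 to 3054) and 34.3 (13.5 to 87.1) from 0.5 to 2 U. In M the flanks thus had as many or more calls at 2 U than at 0.5 U while the bin lost them. In RS the flanks lost calls as well, as the whole list did, and per 100000 calls they went from 12.3 to 4.80 and 3.69. The RS intervals of bin over flanks at 0.5 and 1 U overlap, with no value at 2 U. A fall of the bin beyond that of its flanks is thus not shown in RS.

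On chromosome 2 the flanks had 15, 1 and 0 calls in RS and 5, 3 and 5 in M, of which 1 in RS and 3 in M at 0.5 U belong to the run that crosses the edge. The bin over its flanks was 14.7 (6.74 to 31.9) in RS at 0.5 U, and 140 (54.8 to 357.3) and 53.3 (14.1 to 201.0) in M at 0.5 and 1 U. In RS it had no value at 1 and 2 U, so a fall beyond that of the flanks is not shown there. Around the bin but within 100 kb of it, Myo3a, a myosin of the hair cells of the inner ear, held 11, 1 and 0 calls in RS and 5, 2 and 0 in M. Gad2, an enzyme that makes the transmitter GABA, held 3, 0 and 0 in RS and 0, 1 and 5 in M. In the flank of the chromosome 1 bin, Lmbrd1, of lysosomal vitamin B12 export, held 4, 0 and 1 calls in RS and 2, 1 and 0 in M. At 1 and 2 U no call in the flanks of either bin implied more than 7 reads.

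Both bins were then placed among 260 dense bins of 10 kb, those with more than 20 calls in any list. In RS 13 of them (5%) were at least 2-fold lower per 100000 calls at 2 U than at 0.5 U, in M 24 (9.23%), and in both fractions 5 (1.92%), with an empty bin at 2 U counted as lower. At 4-fold, 2 (0.769%) counted as lower in both, and these are the bins described here. The chromosome 2 bin counts so in RS only because its list at 2 U was empty, since its relative fall there was not detectable. Among all bins with at least 5 calls at 0.5 U, loss was common: 2894 of 3800 (76.2%) counted as at least 2-fold lower in RS, 2870 of them empty at 2 U, and 229 of 561 (40.8%) in M. Of 430 bins with that many calls in both fractions, 40 (9.3%) were at least 2-fold lower in both and 26 (6.05%) at least 4-fold. Since the bins were chosen for this fall, nothing is read from these counts. The log2 ratio of 2 U to 0.5 U, with 0.5 added to each count, had a median over dense bins of 1.10 in RS and -0.15 in M. On chromosome 1 it was -5.10 in RS and -3.95 in M, ranks 1 and 2 of 260 from the lowest. On chromosome 2 it was -1.80 in RS and -6.79 in M, ranks 7 and 1. Values of an empty list depend on the 0.5 added. Nothing is read from these ranks either, since the bins were chosen for this same fall. The chromosome 2 bin counts as dense only through M at 0.5 U, with 35 calls.

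**Figure D5:**
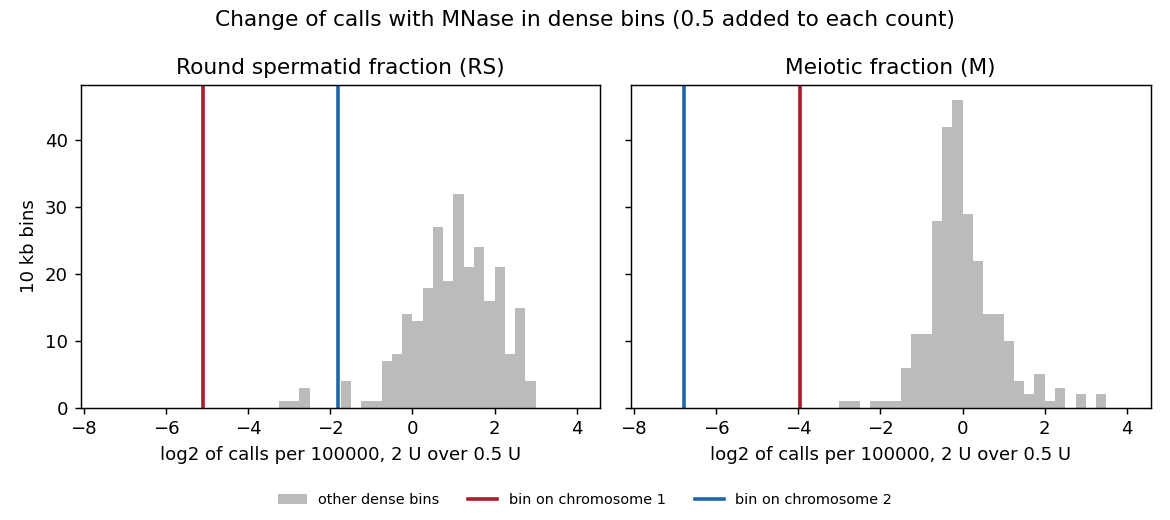
Number of 10 kb bins (vertical axis) by the log2 ratio of calls per 100000 at 2 U over 0.5 U (horizontal axis, 0.5 added to each count) for the other dense bins in grey, RS on the left and M on the right. Coloured lines mark the bins on chromosomes 1 and 2, at -5.10 and -1.80 in RS and at -3.95 and -6.79 in M. These bins were chosen for this fall.

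Ranked by depth at 0.5 U, both bins stood among the upper dense bins. By the median reads of its calls the chromosome 1 bin ranked 14 of 260 dense bins in RS and 4 of 258 with calls in M, where the median over dense bins was 7 reads in both. The chromosome 2 bin ranked 23 in RS and 17 in M, with a median of 13 reads in each. By number of calls it ranked far lower, 258 of 260 in RS with 11 calls and 53 of 258 in M with 35. The chromosome 1 bin ranked 20 in RS and 11 in M by that number. A dense place that kept its calls was the bin of the ribosomal RNA-like gene Rn18s-rs5 on chromosome 17. Its median call implied 30, 29 and 31 reads in RS and 16, 26 and 35 in M from 0.5 to 2 U, against 17, 7.5 and no calls in RS and 53.5, 9 and 8 in M on chromosome 1. At 0.5 U the chromosome 1 bin was thus shallower than this bin in RS and deeper in M, and at 2 U it was shallower in both.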

How the data were processed

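Per the submitters' processing notes, which state no roles, STAR 2.5.2a was used and the build was GRCm38/mm10. How calls were made is not given in the sources used here. Both replicates went into each list, per the series' design text, so replicate spread was not analysed. Calls are intervals of 140 bp, each with the authors' deposited p-value and no read count. Depth of sequencing is unknown.

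The p-values of a list were matched to upper tails of a Poisson distribution with a minimum of 6 reads, and p-values below 1e-300 were set at the lowest count they allow. Calls were placed by midpoint, in bins of 10 kb, and set per 100000 calls of the list. Counts have exact Poisson 95% intervals, and log2 ratios have normal intervals with 0.5 added to each count. An empty list was set at 3 calls in bounds. Steps were tested on simulated data (Python 3.11.15, scipy 1.17.1). The bins, lists and comparisons were chosen with earlier results of these data known. Named genes were those overlapping a bin, flank genes with flank calls in at least 3 lists, and mitochondrially encoded genes tied to the bins. Col19a1 lies outside this rule. The placement of mitochondrial genes, the windows of 100 bp and the sums of reads were added after the data were seen. The reference tables held no sequence of the bins, no strand and no exons.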

Additional observations from a re-analysis of the deposited data

Results flagged for a closer look

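Ratios of 2 U to 0.5 U had opposite signs in the fractions for 4 of the regions set beside the bins, with 1 list per point, so that no difference was tested. For the flanks of the chromosome 1 bin, the log2 ratio of calls per 100000 at 2 U over 0.5 U was -1.18 in RS and 0.95 in M, from 1 and 7 calls at 2 U, and both intervals include 0. It was 2.72 in RS and -0.31 in M for the ribosomal RNA-like bin on chromosome 17, 0.77 in RS and -0.43 in M for the Prl2c3 block on chromosome 13, and 2.41 in RS and -0.12 in M for the Sfi1 block on chromosome 11. The M intervals also include 0 for the bin on chromosome 17 and the Sfi1 block, so that an opposite direction in M is not shown there. The signs outside the flanks rest on division by list size. By raw counts at 2 U and 0.5 U, the chromosome 17 bin had 163 and 163 calls in RS and 168 and 134 in M, the Prl2c3 block 409 and 1586 in RS and 892 and 775 in M, and the Sfi1 block 682 and 847 in RS and 784 and 548 in M. The raw numbers were thus equal or lower at 2 U in RS and higher in M. The chromosome 1 bin had lower values at 2 U in both fractions.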

How the results depend on the processing

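No paired analysis was possible because each list was made from both replicates of its group, and for the same reason no replicate could be left out. Merging overlapping calls changed most, since the stretch on chromosome 1 is 1 merged position in M at 0.5 U and 5 at 2 U. By merged positions, the log2 ratio of 2 U over 0.5 U was -0.84 in RS and turned to 1.23 in M, the log2 ratio of RS to M became -0.03 for 0.5 U, -0.35 for 1 U and 1.25 at equal MNase per cell (RS with 1 U, M with 0.5 U), and bin over flanks was 3.07 in RS at 0.5 U and 4.32 and 5.70 in M at 0.5 and 1 U. Not divided by list size, the fall in M on chromosome 1 was -3.32 by raw calls and, in alternatives added after seeing the data, -2.37 by bases covered and -5.18 by reads of non-overlapping calls. Stepwise in M, the ratios were -1.23 (1 U over 0.5 U) and -2.72 (2 U over 1 U) on chromosome 1 and -2.57 (1 U over 0.5 U) on chromosome 2. Raw counts gave RS over M at 0.5 U of -0.13 on chromosome 1 and -1.63 on chromosome 2. With calls of more than 6 reads, bin over flanks on chromosome 1 was 8.18 in RS at 0.5 U and 12.28 and 11.38 in M at 0.5 and 1 U. A 4-fold threshold left 5 dense bins in M in place of 24. Of 189 alternative values, 166 moved by less than their counting interval or 1.5 times, 21 moved further and 2 reversed. A reversal was counted only where the interval of the main value left out 0. With empty lists or few calls the intervals are wide, and a change of sign within them was not counted. For the chromosome 2 flanks in M, for instance, the fall of -0.64 became 0.58 by merged positions. The tally is thus no measure of how stable the results are. Presence of a call at the minimum depends on 1 read, and empty lists show no more than the absence of windows with 6 reads.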

Other observations

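Over the whole gene, flanks included, Myo3a outside the bin held 23, 5 and 0 calls in RS and 6, 5 and 6 in M from 0.5 to 2 U. Of those at 0.5 U, 1 in RS and 3 in M belong to the run that crosses the edge of the bin. Col19a1, a collagen gene that reaches into the flank of the chromosome 1 bin, is named after its values were seen, as it had flank calls in only 2 lists. Its whole body held 33, 3 and 2 calls in RS and 3, 10 and 7 in M. By raw count neither gene had fewer calls in M at 2 U than at 0.5 U, which was not tested. As the M list grew from 42178 to 65614 calls, Myo3a outside the bin was lower at 2 U relative to list size.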
